A study of Homo sapiens with 4 samples.

Results

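The genes described are the nuclear-encoded subunits of respiratory complexes II to V with cytochrome c, 40 of the 18999 nuclear coding genes in the files. The rule takes them by name and uses no measured value, although earlier results of these data were known when it was set. Complex II contributes 4 genes, complex III 9, cytochrome c 1, complex IV 11 and complex V 15. The value of a gene is the sum of the FPKM, a read density per transcript length and library size, of its Ensembl transcripts typed as coding. The sum over all Ensembl transcripts is given for some of the genes where it differs, and not for all of them. In each library, 9 to 11 genes had under 50% of their Ensembl FPKM in coding transcripts. The 40 genes have 293 Ensembl transcripts in the files, 138 of them coding. SDHD, COX6C, ATP5MC2, ATP5MF and ATP5PO were listed at 0 in the coding transcripts of all 4 libraries, so 35 genes have a coding value.

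RNA was sequenced from WI-38, an established line of diploid human lung fibroblasts that reaches replicative senescence in culture. The 4 groups were senescent whole cells and young whole cells, and senescent mitoplasts and young mitoplasts. Senescent cells were at population doubling level (PDL) 60 and young cells at PDL 21, all grown in the same medium per the labels. Mitoplasts are mitochondria without their outer membrane, obtained here by swelling and treated with RNase A to remove RNA outside the inner membrane, and 1 library was made per group.

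Complexes II, III and IV are electron carriers of the inner mitochondrial membrane, and complex V is the ATP synthase that the resulting proton gradient drives. Complex II is encoded in the nucleus alone, whereas complexes III, IV and V also hold subunits encoded by mitochondrial DNA. The nuclear-encoded subunits are translated in the cytosol and imported, and some of their mRNAs are known to be translated at the mitochondrial surface.

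The libraries differed as a whole. A level of 5 FPKM or more was reached by 5223 coding genes in senescent against 5560 in young whole cells, and by 2604 in senescent against 4509 in young mitoplasts. Unnamed assembled transcripts held 97.3% of all FPKM in the senescent mitoplast library and 53.7% to 92.7% in the others. All 8 fibroblast markers reached 1 FPKM in at least 1 library, with summed levels of 452 to 5825 FPKM. VIM, S100A4 and FAP were listed at 0 in senescent mitoplasts, and PDGFRB in both young libraries. The blood and immune markers summed to at most 0.756 FPKM, with PTPRC, CD3E and CD68 at 0 in all 4 libraries. Epithelial markers summed to 22.1 to 25.9 FPKM, with 5 of 7 at 1 FPKM or more in a library and SFTPC at 0, and KRT18 held 12.6 to 19.7 FPKM of this. Endothelial markers summed to 8.23 to 28.9 FPKM, with 1 of 4 at 1 FPKM or more and CDH5 at 0. That gene was TEK, at 7.95 to 28.8 FPKM. PECAM1 was on the endothelial list as well but was not found among the coding genes. Muscle markers summed to 29.6 FPKM in the senescent mitoplast library, of which TTN held 27.8 FPKM, with 2 of 4 at 1 FPKM or more. They summed to 0.0285 to 1.11 FPKM in the others, and their part in the results on the senescent mitoplast library was not tested. The depth of the libraries is unknown.

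Many of the subunit mRNAs, but not all, were among the more abundant coding mRNAs in each library. Summed coding FPKM of the 40 genes was 1720.4 in senescent against 2448 in young whole cells, and 799.7 in senescent against 3568 in young mitoplasts. As a share of the coding sum of each library, this was 0.591% in senescent against 0.698% in young whole cells, and 0.904% in senescent against 1.29% in young mitoplasts. The share was thus higher in the mitoplast than in the whole-cell library at both PDLs, and lower in the senescent than in the young library in both fractions. Among the genes with a value above 0, the median was 38.3 FPKM in senescent and 63.1 FPKM in young whole cells, and 25.6 FPKM in senescent and 72.7 FPKM in young mitoplasts. Of the 40 genes, 25 in senescent against 21 in young whole cells, and 20 in senescent against 28 in young mitoplasts, were in the top 10% of coding genes.

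The order of levels was similar across libraries. Over the 35 genes with a coding value, Spearman's rho was 0.899 between senescent and young whole cells and 0.803 between the young mitoplast and young whole-cell libraries. It was 0.711 between the senescent mitoplast and senescent whole-cell libraries and 0.652 between senescent and young mitoplasts. These coefficients describe genes, which share the transcript models used to estimate them. The highest gene was ATP5MG in senescent whole cells at 162 FPKM, UQCRH in young whole cells at 233 FPKM, COX7A2 in senescent mitoplasts at 138 FPKM and ATP5ME in young mitoplasts at 318 FPKM. The lowest above 0 was ATP5MC3 at 4.39 FPKM in senescent whole cells, 6.16 FPKM in young whole cells and 9.30 FPKM in young mitoplasts, and COX6A1 at 0.114 FPKM in senescent mitoplasts.

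**Figure D1:**
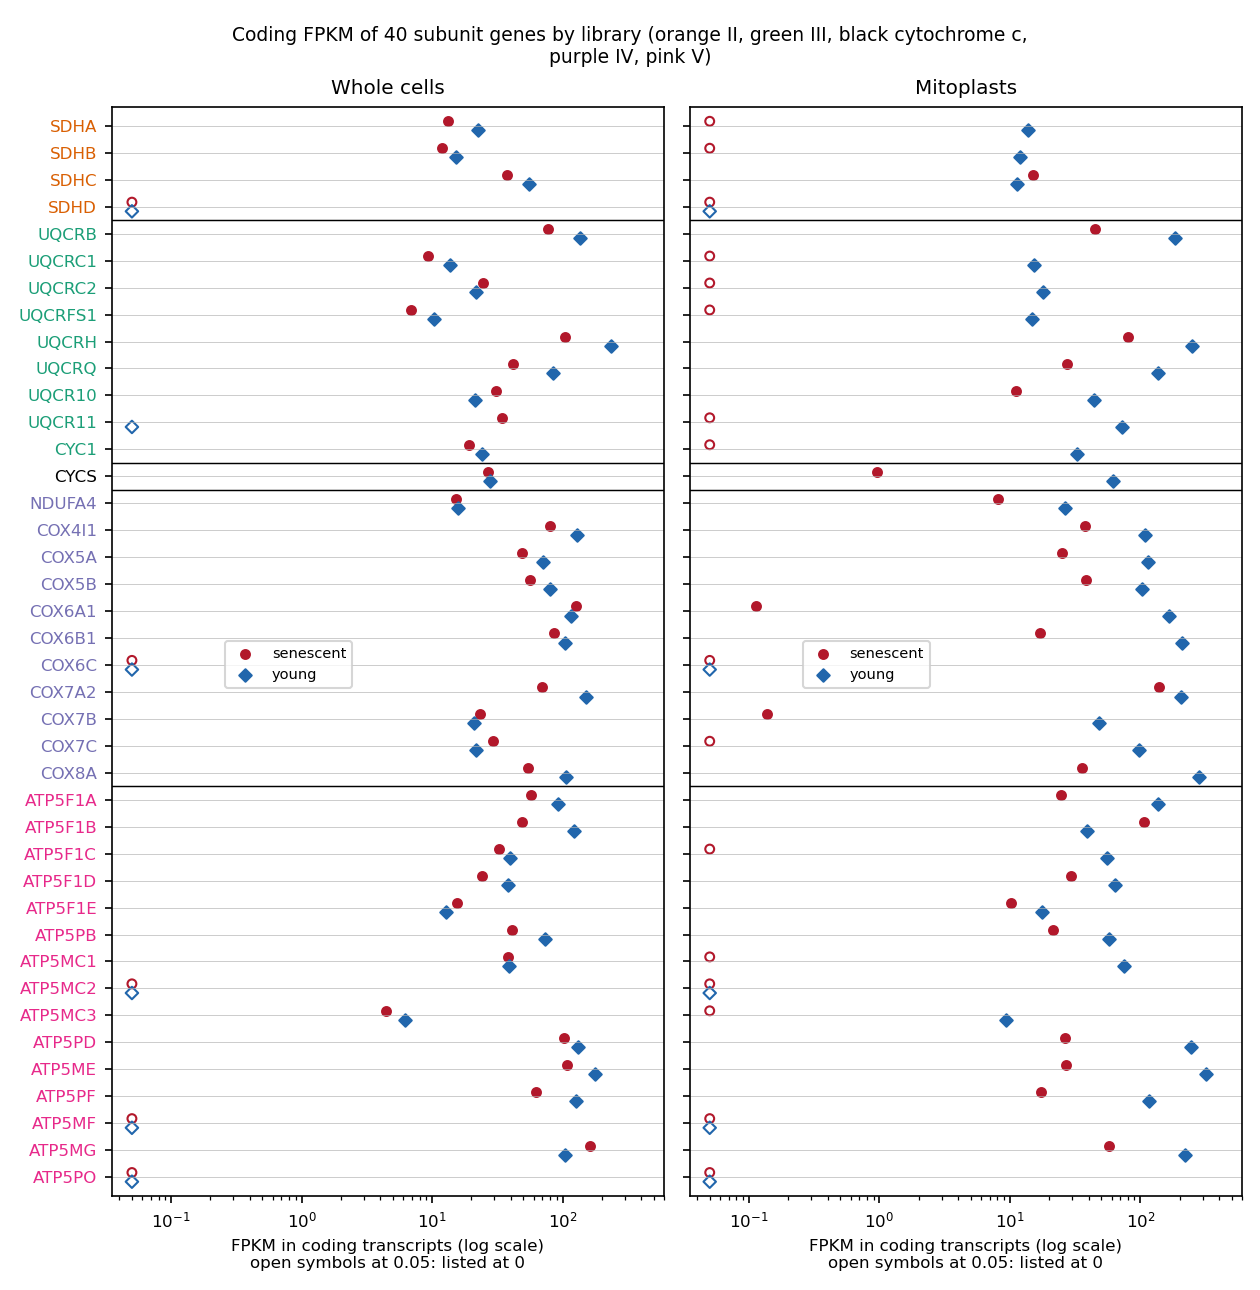
Coding FPKM of each of the 40 genes (rows, grouped by complex) on a log axis, in senescent (circles) and young (diamonds) libraries of whole cells (left) and mitoplasts (right), 1 library each. Open symbols are genes listed at 0: 5 in senescent against 6 in young whole cells, and 16 in senescent against 5 in young mitoplasts.

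In whole cells, most subunit mRNAs were modestly lower in the senescent library. The log2 ratio of senescent over young, with 1 FPKM added to each value, was below 0 for 27 of the 35 genes at 5 FPKM or more in either library, with a median of −0.51. The median of all 6391 nuclear coding genes compared was −0.23, so the subunits stood −0.28 from it. Few single genes differed by much: 5 genes, or 14.3%, had a log2 ratio of −1 or less, against 23.4 percent of all coding genes. These were ATP5F1B, UQCRH, COX7A2, ATP5PF and UQCRQ. UQCR11 was past a log2 ratio of 1 on the higher side, against 14.8 percent of all coding genes, and its young whole-cell value was 0. Both shares are below those of all coding genes, so the difference of the subunits is a small shift of many genes and not an excess of large ones. With 1 library per group, no ratio has a replicate check, comparisons that share a library are not independent, and fewer cells expressing a gene and less RNA per cell cannot be told apart.

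Rescaling the libraries to an equal coding sum moved the median of all coding genes to 0.06 and that of the subunits to −0.26, which left the subunits −0.31 from the other genes. By median-of-ratios scaling the values were −0.05 for all coding genes and −0.35 for the subunits. With all Ensembl transcripts they were −0.27 for all coding genes and −0.43 for the subunits, a smaller distance of −0.16. In coding transcripts as deposited, the median ratio was −0.56 in complex II, −0.51 in complex III, −0.41 in complex IV and −0.52 in complex V. By this measure the complexes had similar medians, and in each of them more genes were below 0 than above. With all Ensembl transcripts the medians were −0.12 in complex II, −0.44 in complex III, −0.54 in complex IV and −0.38 in complex V. The complex II medians rest on 3 genes. In coding transcripts, complex I subunits had a median of −0.41 in the same comparison, mitochondrial ribosomal proteins −0.49 and cytosolic ribosomal proteins −0.99.

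**Figure D2:**
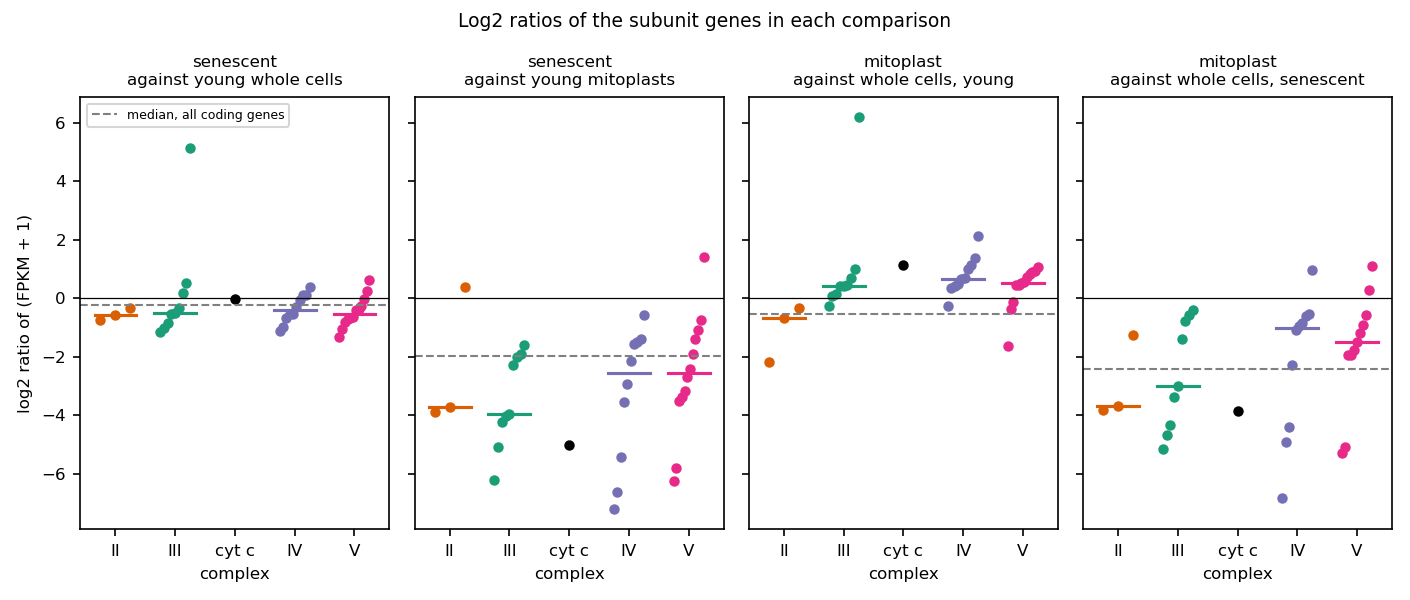
Log2 ratios of (FPKM + 1) for the subunit genes in the 4 comparisons, 1 point per gene, by complex, with coloured bars at the median of each complex and a dashed line at the median of all nuclear coding genes. In whole cells 27 of 35 genes are below 0, in the senescent against the young mitoplast library 33 of 35, and in the young mitoplast against whole-cell comparison 27 of 35 are above 0; points below about −3 in the panels with senescent mitoplasts are mostly genes listed at 0 there.

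Complex II, succinate dehydrogenase, was the lowest of the complexes in summed coding FPKM, with 62.2 in senescent against 92.7 in young whole cells, and 15.0 in senescent against 37.0 in young mitoplasts. SDHA, the flavoprotein that oxidises succinate, was at 13.2 FPKM in senescent against 22.4 FPKM in young whole cells, and was listed at 0 in senescent mitoplasts against 13.7 FPKM in young mitoplasts. SDHB, the iron-sulfur subunit, was at 11.9 FPKM in senescent against 15.3 FPKM in young whole cells, and was listed at 0 in senescent mitoplasts against 12.03 FPKM in young mitoplasts. Both catalytic subunits were thus lower in the senescent whole-cell library and had no coding value in the senescent mitoplast library. SDHC, a membrane anchor, was at 37.2 FPKM in senescent against 55.1 FPKM in young whole cells, with 15.0 FPKM in senescent against 11.3 FPKM in young mitoplasts. Its value came from the 369 nt transcript ENST00000392169 in 3 libraries, but from transcripts of 1127 nt and 13566 nt in young mitoplasts, so its mitoplast values rest on different models. SDHD, the other anchor, had 8.69 FPKM in a transcript subject to nonsense-mediated decay in senescent mitoplasts and 0 elsewhere. A gene that shares 2 exons with SDHD, ENSG00000255292, was at 99.5 FPKM in senescent against 62.0 FPKM in young whole cells and at 0 in senescent against 36.1 FPKM in young mitoplasts, and reads of the shared exons cannot be told apart.

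In coding transcripts, all 3 measured genes of complex II were lower in the young mitoplast than in the young whole-cell library, whereas in each of the other complexes most genes were higher. The log2 ratios were −2.19 for SDHC, −0.68 for SDHA and −0.32 for SDHB. The SDHC ratio compares different transcripts. It was −1.88 with all Ensembl transcripts and 3.62 with coding transcripts of at least 400 nt. With all Ensembl transcripts SDHB had a ratio of 1.27, since a processed transcript without a reading frame held 26.2 FPKM in young mitoplasts and 0 in young whole cells. By the same measure SDHA was higher in the senescent mitoplast library, with 131 FPKM in senescent and 13.7 FPKM in young mitoplasts. A retained-intron transcript of 580 nt held 85.5 FPKM of this in senescent mitoplasts and was at 0 in the other 3 libraries.

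Complex III, the cytochrome bc1 complex, summed to 348 FPKM in senescent against 545 FPKM in young whole cells, and to 164 FPKM in senescent against 764 FPKM in young mitoplasts. The small subunits UQCRH, UQCRB and UQCRQ were above its catalytic and core proteins in each of the 4 libraries. UQCRH, the acidic hinge protein that links cytochrome c1 with cytochrome c, was at 105 FPKM in senescent against 233 FPKM in young whole cells, with 80.4 FPKM in senescent against 246 FPKM in young mitoplasts. All its FPKM was in the 604 nt transcript ENST00000311672 in every library. The log2 ratio of senescent over young was −1.14 in whole cells and −1.60 in mitoplasts. Between fractions it was 0.08 in young and −0.38 in senescent cells, the highest value of complex III in senescent cells.

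UQCRB, a small subunit that contributes to ubiquinone binding, was at 76.5 FPKM in senescent against 137 FPKM in young whole cells, with 44.7 FPKM in senescent against 184 FPKM in young mitoplasts. UQCRQ, a further small subunit, was at 41.6 FPKM in senescent against 84.4 FPKM in young whole cells, with 27.6 FPKM in senescent against 137 FPKM in young mitoplasts. Both were lower in the senescent library of either fraction. UQCR10 was at 30.7 FPKM in senescent against 21.1 FPKM in young whole cells, with 11.0 FPKM in senescent against 43.7 FPKM in young mitoplasts. It was therefore higher in senescent whole cells (log2 ratio 0.52) and lower in senescent mitoplasts (log2 ratio −1.89). The leading transcript of UQCR10 had 916 nt in the senescent libraries and 584 nt in the young ones. UQCR11 had coding FPKM of 34.4 in senescent whole cells and 72.7 in young mitoplasts, and 0 was listed for young whole cells and senescent mitoplasts. All its Ensembl transcripts summed to 101 FPKM in senescent against 125 FPKM in young whole cells, and to 45.8 FPKM in senescent against 286 FPKM in young mitoplasts. In young whole cells a processed transcript of 409 nt, with no reading frame, held all 125 FPKM, and the sum over all transcripts was lower in senescent whole cells (log2 ratio −0.31).

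The core and redox subunits of complex III were at 6.91 to 24.4 FPKM in senescent and 10.3 to 24.2 FPKM in young whole cells. UQCRFS1, the Rieske iron-sulfur protein, was at 6.91 FPKM in senescent against 10.3 FPKM in young whole cells, and was listed at 0 in senescent mitoplasts against 14.7 FPKM in young mitoplasts. CYC1, cytochrome c1, was at 19.0 FPKM in senescent against 24.2 FPKM in young whole cells, and was listed at 0 in senescent mitoplasts against 32.5 FPKM in young mitoplasts. The core proteins, which resemble processing peptidases, were listed at 0 in the coding transcripts of senescent mitoplasts as well. UQCRC1 was at 9.36 FPKM in senescent against 13.8 FPKM in young whole cells, with 15.4 FPKM in young mitoplasts, and UQCRC2 was at 24.4 FPKM in senescent against 21.6 FPKM in young whole cells, with 17.9 FPKM in young mitoplasts. Over all Ensembl transcripts UQCRC1 was at 33.3 FPKM in senescent against 73.5 FPKM in young whole cells. By that measure it was at 34.7 FPKM in senescent against 93.6 FPKM in young mitoplasts, and UQCRC2 stayed at 0 in senescent mitoplasts. UQCRC2 was the gene of complex III that was lower in the young mitoplast than in the young whole-cell library (log2 ratio −0.26), and the other 8 were higher.

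CYCS, cytochrome c, which carries electrons from complex III to complex IV and triggers caspase activation when released, was close in the whole-cell libraries, with 27.0 FPKM in senescent and 27.6 FPKM in young cells (log2 ratio −0.03). In mitoplasts it was at 0.957 FPKM in senescent and 61.5 FPKM in young cells (log2 ratio −5.00). The young mitoplast library was above the young whole-cell library (log2 ratio 1.13), and the senescent mitoplast library was below the senescent whole-cell library (log2 ratio −3.84). Its 498 nt coding transcript, with 43.3 FPKM in young mitoplasts, was at 0 in senescent mitoplasts, where only the 4098 nt transcript had a value. CYCS has 41 annotated pseudogene copies in the files, which summed to 32.3 FPKM in senescent and 5.49 FPKM in young whole cells and 0 in both mitoplast libraries, and how reads were divided among the copies is not known.

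Complex IV, cytochrome c oxidase, summed to 586 FPKM in senescent against 818 FPKM in young whole cells, and to 299.6 FPKM in senescent against 1354 FPKM in young mitoplasts. COX7A2, the widely expressed isoform of subunit VIIa, was at 69.3 FPKM in senescent against 152 FPKM in young whole cells, with 138 FPKM in senescent against 204 FPKM in young mitoplasts. Its log2 ratio of senescent over young was −1.12 in whole cells and −0.56 in mitoplasts, the highest of complex IV in mitoplasts. It was higher in the mitoplast library in both young (0.43) and senescent cells (0.98). All 138 FPKM in senescent mitoplasts was in the 357 nt transcript ENST00000460985, which was also its leading transcript in the other libraries.

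COX8A, a small membrane subunit, was at 53.9 FPKM in senescent against 106 FPKM in young whole cells, with 35.4 FPKM in senescent against 279 FPKM in young mitoplasts, in the same 507 nt transcript throughout. Its ratios of senescent over young were −0.96 in whole cells and −2.94 in mitoplasts, and its mitoplast to whole-cell ratios were 1.39 in young and −0.59 in senescent cells. COX4I1, the widely expressed isoform of the regulatory subunit IV, was at 80.2 FPKM in senescent against 129 FPKM in young whole cells, with 37.7 FPKM in senescent against 109 FPKM in young mitoplasts. It was the lowest of complex IV in the young mitoplast against whole-cell comparison (log2 ratio −0.25). COX5B, the zinc-binding subunit, was at 55.9 FPKM in senescent against 80.6 FPKM in young whole cells, with 38.4 FPKM in senescent against 103 FPKM in young mitoplasts. COX5A, on the matrix side of the complex, was at 48.5 FPKM in senescent against 71.2 FPKM in young whole cells, with 25.1 FPKM in senescent against 113 FPKM in young mitoplasts. Both were lower in the senescent library of either fraction and higher in the mitoplast library of young cells.

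Other genes of complex IV were near or above the young level in senescent whole cells and at or near 0 in senescent mitoplasts. COX6A1, the widely expressed isoform of subunit VIa, was at 126 FPKM in senescent against 116 FPKM in young whole cells, with 0.114 FPKM in senescent against 165 FPKM in young mitoplasts. COX7B was at 23.1 FPKM in senescent against 21.0 FPKM in young whole cells, with 0.138 FPKM in senescent against 48.0 FPKM in young mitoplasts. The mitoplast ratios of senescent over young were −7.22 for COX6A1 and −5.43 for COX7B, within unchanged leading transcripts, and both depend on the 1 FPKM added. COX7C was at 28.99 FPKM in senescent against 21.7 FPKM in young whole cells, and was listed at 0 in senescent mitoplasts against 98.1 FPKM in young mitoplasts. Summed over all its Ensembl transcripts COX7C was at 144 FPKM in senescent against 255 FPKM in young whole cells, with 115 FPKM in senescent against 385 FPKM in young mitoplasts. The direction in whole cells therefore turned with the transcripts counted, with a log2 ratio of 0.40 in coding and −0.82 in all transcripts.

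COX6B1, which faces the intermembrane space, was at 85.2 FPKM in senescent against 105 FPKM in young whole cells, with 16.9 FPKM in senescent against 209 FPKM in young mitoplasts. In senescent mitoplasts all of it was in a 435 nt transcript that was at 0 in the other libraries, where a 667 nt transcript held it. NDUFA4, first described in complex I and now assigned to complex IV, was at 15.2 FPKM in senescent against 15.8 FPKM in young whole cells, with 8.15 FPKM in senescent against 26.2 FPKM in young mitoplasts. COX6C had no coding value and was seen in transcripts subject to nonsense-mediated decay, at 23.5 FPKM in senescent against 39.0 FPKM in young whole cells and at 0 in senescent against 29.1 FPKM in young mitoplasts. Its 17 pseudogene copies summed to 13.4 FPKM in senescent and 17.7 FPKM in young whole cells.

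Complex V, the ATP synthase, summed to 697 FPKM in senescent against 965 FPKM in young whole cells, and to 320.5 FPKM in senescent against 1350.8 FPKM in young mitoplasts. In its catalytic F1 part, the alpha and beta subunits alternate in a ring around a central stalk. ATP5F1A, the alpha subunit, was at 57.4 FPKM in senescent against 92.4 FPKM in young whole cells, with 24.7 FPKM in senescent against 136 FPKM in young mitoplasts. In senescent mitoplasts all of it was in a 5818 nt transcript, and in the other libraries in a 1945 nt transcript. ATP5F1B, the catalytic beta subunit, was at 49.2 FPKM in senescent against 123 FPKM in young whole cells, with 106 FPKM in senescent against 38.8 FPKM in young mitoplasts.

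ATP5F1B was opposite to most other genes in 3 of the 4 comparisons. Its log2 ratio of senescent over young was −1.30 in whole cells and 1.43 in mitoplasts, and its mitoplast to whole-cell ratio was −1.64 in young and 1.10 in senescent cells. These values came from different transcripts: one of 814 nt in senescent whole cells, chiefly one of 399 nt in young whole cells, the 399 nt transcript alone in senescent mitoplasts, and one of 1085 nt in young mitoplasts. Over all Ensembl transcripts ATP5F1B was at 149 FPKM in senescent against 123 FPKM in young whole cells, with 134 FPKM in senescent against 38.8 FPKM in young mitoplasts. With the assembled transcripts of its locus added it was at 225 FPKM in senescent against 163 FPKM in young whole cells, with 177 FPKM in senescent against 179 FPKM in young mitoplasts. With every transcript of the locus counted, the mitoplast values of senescent and young cells were thus close, and the whole-cell value was higher in senescent cells.

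In the coding transcripts of whole cells the central stalk genes were lower than the ring genes. ATP5F1C, the gamma subunit, was at 32.7 FPKM in senescent against 39.7 FPKM in young whole cells, and was listed at 0 in senescent mitoplasts against 55.0 FPKM in young mitoplasts. Over all Ensembl transcripts ATP5F1C was at 205 FPKM in senescent against 273 FPKM in young whole cells, with 63.5 FPKM in senescent against 266 FPKM in young mitoplasts. ATP5F1D, the delta subunit, was at 24.3 FPKM in senescent against 38.3 FPKM in young whole cells, with 29.5 FPKM in senescent against 63.9 FPKM in young mitoplasts. It was, with COX7A2 and ATP5F1B, above 0 in the senescent mitoplast against whole-cell ratio (0.27). ATP5F1E, the epsilon subunit, was at 15.5 FPKM in senescent against 12.7 FPKM in young whole cells, with 10.1 FPKM in senescent against 17.7 FPKM in young mitoplasts, with a mitoplast ratio of senescent over young of −0.74.

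Of the peripheral stalk, which holds the F1 part still against the rotor, ATP5PD (subunit d) was at 103 FPKM in senescent against 131 FPKM in young whole cells, with 26.2 FPKM in senescent against 244 FPKM in young mitoplasts. ATP5PF (coupling factor 6) was at 61.9 FPKM in senescent against 128 FPKM in young whole cells, with 17.4 FPKM in senescent against 117 FPKM in young mitoplasts. ATP5PB (subunit b) was at 41.2 FPKM in senescent against 73.6 FPKM in young whole cells, with 21.5 FPKM in senescent against 57.6 FPKM in young mitoplasts. All 3 were lower in the senescent library of either fraction. ATP5PB and ATP5PF were also slightly lower in the young mitoplast than in the young whole-cell library, with log2 ratios of −0.35 and −0.13. Over all Ensembl transcripts ATP5PB turned to 0.33, with 156 FPKM in young mitoplasts against 123 FPKM in young whole cells. Its ratio of senescent over young whole cells was −0.12 by that measure. ATP5PO, the oligomycin sensitivity subunit, was at 0 throughout, and a gene that shares 4 exons with it, ENSG00000249209, was at 279 FPKM in senescent against 349.9 FPKM in young whole cells and at 0 in both mitoplast libraries.

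The membrane subunits e and g shape ATP synthase dimers, and the highest gene of complex V was ATP5ME in both young libraries and ATP5MG in senescent whole cells. ATP5ME (subunit e) was at 107 FPKM in senescent against 177 FPKM in young whole cells, with 27.1 FPKM in senescent against 318 FPKM in young mitoplasts. ATP5MG (subunit g) was at 162 FPKM in senescent against 104 FPKM in young whole cells, with 57.6 FPKM in senescent against 218 FPKM in young mitoplasts, in a 336 nt coding transcript. The 2 genes were on opposite sides of 0 in whole cells, with log2 ratios of senescent over young of −0.72 for ATP5ME and 0.63 for ATP5MG. In mitoplasts both were lower in the senescent library, at −3.51 for ATP5ME and −1.90 for ATP5MG. ATP5MF, subunit f, was at 0 throughout.

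The c subunit, whose ring carries protons through the membrane, is made from 3 genes with the same mature protein. ATP5MC1 supplied most of the coding FPKM, at 38.3 in senescent against 38.5 in young whole cells, and was listed at 0 in senescent mitoplasts against 75.2 FPKM in young mitoplasts. ATP5MC3 was at 4.39 FPKM in senescent against 6.16 FPKM in young whole cells, and was listed at 0 in senescent mitoplasts against 9.30 FPKM in young mitoplasts. ATP5MC2 was at 0 in every Ensembl transcript of every library. Their sum was 42.7 FPKM in senescent and 44.6 FPKM in young whole cells, of which ATP5MC1 made up 89.7% in senescent and 86.2% in young cells. Over all Ensembl transcripts the sum was 69.8 FPKM in senescent and 91.0 FPKM in young whole cells, and 23.0 FPKM in senescent and 184 FPKM in young mitoplasts.

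In young cells the subunit mRNAs were higher in the mitoplast than in the whole-cell library, whereas the typical coding gene was lower. The log2 ratio was above 0 for 27 of 35 genes with a median of 0.51, against a median of −0.52 over 6444 coding genes, so the subunits stood 1.03 above it. By a log2 ratio of 1 or more, 7 genes (20.0%) were higher, against 15.6 percent of all coding genes, and 2 genes (5.71%) were lower, against 39.1 percent. The count of lower genes is far below the background. The count of higher genes is near it as deposited, but with equal coding sums and by median-of-ratios scaling 15 genes were higher, against 21.8% and 24.4% of all coding genes. The lower genes were SDHC and ATP5F1B, whose leading transcripts differed between the libraries. The higher genes were UQCR11, COX7C, COX8A, COX7B, CYCS, ATP5MG and UQCR10.

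The median ratio was −0.68 in complex II, 0.42 in complex III, 0.68 in complex IV and 0.54 in complex V. The complex II median rests on 3 genes. Of these, SDHB turned above 0 with all Ensembl transcripts, and SDHC only with coding transcripts of at least 400 nt, as described above. With all Ensembl transcripts SDHA was at −2.71, and the complex II median was −1.88. With equal coding sums the subunits were at 0.80 and all coding genes at −0.12, and by median-of-ratios scaling the subunits were at 0.90 and all coding genes at 0.02. Other genes whose products work in or with mitochondria had medians above 0 too, at 0.46 for complex I and 0.29 for mitochondrial ribosomal proteins. Cytosolic ribosomal proteins, which translate mRNAs in the cytosol, had a median of 0.48, and GAPDH, a glycolytic enzyme of the cytosol, had a ratio of 0.93, with 1818 FPKM in young mitoplasts and 953 FPKM in young whole cells. ACTB, cytoplasmic actin, had a ratio of −0.51. The median of the subunits was thus close to that of the cytosolic ribosomal proteins. The mRNAs made inside mitochondria were at ratios of 1.59 to 2.00: MT-CO1, the core of complex IV, was at 34115 FPKM in young mitoplasts and 8540.2 FPKM in young whole cells.

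In senescent cells most subunit mRNAs were lower in the mitoplast than in the whole-cell library, and how they stood to the typical coding gene depended on the filter. The log2 ratio was below 0 for 31 of 34 genes, with a median of −1.63 against −2.42 over 5960 coding genes. With genes at 1 FPKM or more in either library the medians were −1.78 for the subunits and −1.76 for all coding genes, and with no filter −1.33 and −0.08. By 1 or more, 22 genes (64.7%) were lower, against 70.8 percent of all coding genes, and ATP5F1B (2.94%) was higher, against 13.2 percent. Both shares are near or below the background. Among the 24 genes above 0 in both libraries the median was −0.997 and 12 were lower by 1 or more, against a median of −1.44 over all such coding genes, of which 61 percent were lower. The direction of the subunit median depended on the scaling: it was 0.06 with equal coding sums, against −0.41 over all coding genes, and −0.16 by median-of-ratios scaling, against −0.60. As deposited, cytosolic ribosomal proteins had a median of −0.55, complex I subunits −1.71 and mitochondrial ribosomal proteins −2.75. GAPDH had a ratio of −1.56 and ACTB one of −3.44.

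Between mitoplast libraries, subunit mRNAs were lower in the senescent one by more than the typical coding gene. The log2 ratio of senescent over young was below 0 for 33 of 35 genes with a median of −2.94, against −1.96 over 5359 coding genes. By 1 or more, 31 genes (88.6%) were lower, against 64.2 percent of all coding genes, and ATP5F1B was higher, against 17.5 percent. Of the 35, 11 were listed at 0 in senescent mitoplasts. Over the 24 genes above 0 in both libraries the median was −1.96 and 20 were lower by 1 or more, against a median of −1.09 over all such coding genes, of which 52.5 percent were lower. The subunits stayed below the typical coding gene under equal coding sums, at −1.33 against 0.10, and by median-of-ratios scaling, at −1.75 against −0.49. Complex I subunits (median −2.83), mitochondrial ribosomal proteins (−3.13) and cytosolic ribosomal proteins (−2.21) were lower as well. GAPDH and ACTB had ratios of −2.64 and −3.54, beside the subunit median of −2.94.

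The genes listed at 0 in senescent mitoplasts were among those with lower levels in young whole cells. Of the 34 genes that reached 5 FPKM in young whole cells, 10 (29.4%) were at 0 in senescent mitoplasts, compared with 41.4% of 5560 coding genes at that level. Of the 18 genes that reached 50 FPKM there, 0 were at 0, compared with 255 of 1184 coding genes (21.5%). Among these 18, COX6A1 was at 0.114 FPKM in senescent mitoplasts. UQCRB, COX6B1, ATP5F1A, ATP5PD and ATP5PF were above 0 there only in a coding transcript that was at 0 in both whole-cell libraries. Over all Ensembl transcripts 7 of the 40 genes were at 0 in senescent mitoplasts, and 4 in each of the other libraries.

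**Figure D3:**
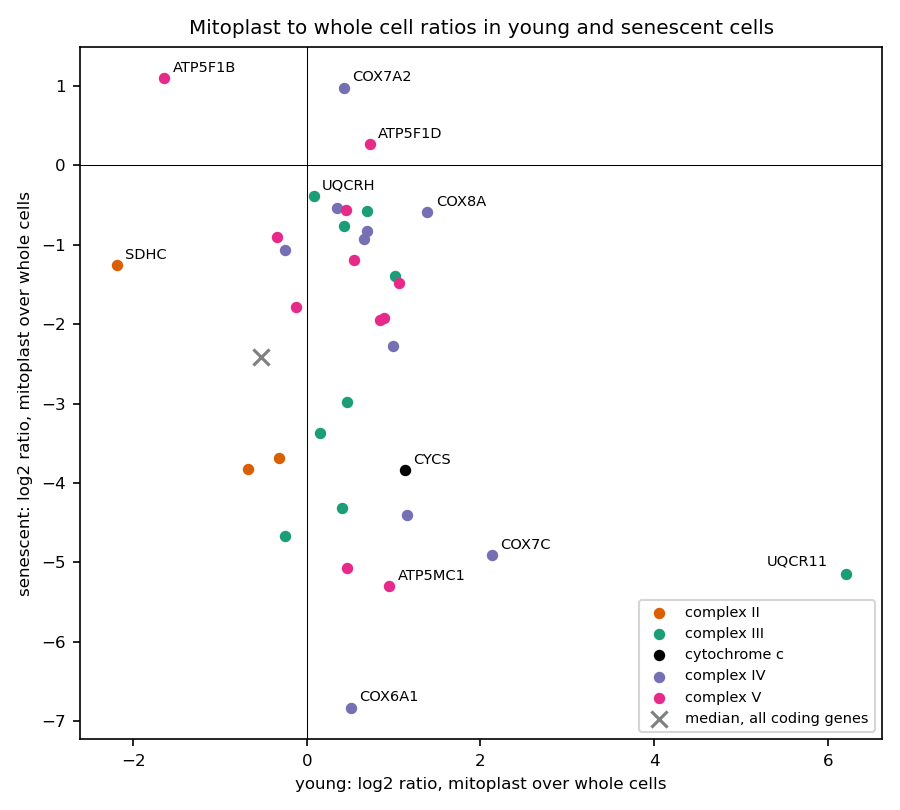
Log2 ratio of mitoplast over whole cells in senescent cells (vertical axis) and in young cells (horizontal axis), 1 point per subunit gene, coloured by complex, with a cross at the median of all nuclear coding genes. Most genes lie right of 0 and below 0, and ATP5F1B, at −1.64 in young and 1.10 in senescent cells, lies in the opposite quadrant.

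The difference between the mitoplast to whole-cell ratios, senescent minus young, had a median of −2.54 over 35 subunit genes and of −1.26 over 7483 coding genes. It was −1 or less for 27 genes (77.1%), against 54.3 percent of coding genes, and 1 or more for ATP5F1B, against 18.1 percent. By complex the median was −3.15 in complex II, −3.45 in complex III, −1.79 in complex IV and −2.14 in complex V. Complex II rests on 3 genes, of which SDHA and SDHB were listed at 0 in senescent mitoplasts. In complex III, 5 of 9 genes were at 0 there, so both medians depend on the 1 FPKM added. With all Ensembl transcripts complex II had a median of 1.60 in senescent over young mitoplasts, against −3.70 in coding transcripts. In the difference, COX7A2 at 0.56 and SDHC at 0.93 were above 0, as was ATP5F1B. UQCRH at −0.46, ATP5F1D at −0.45, ATP5PB at −0.56, COX4I1 at −0.82 and COX5B at −0.88 were between −1 and 0. Complex I subunits had a median of −2.39, mitochondrial ribosomal proteins −2.73 and cytosolic ribosomal proteins −1.15. The difference was not tested, since each ratio rests on 1 library a side.

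The transcripts that carried the subunit FPKM differed most in the senescent mitoplast library. Of genes above 0 in both libraries, the leading coding transcript was the same for 30 of 34 in senescent and young whole cells, 28 of 34 in young mitoplasts and young whole cells, 14 of 24 in senescent mitoplasts and senescent whole cells, and 13 of 24 in senescent and young mitoplasts. With genes of one leading transcript alone, the median ratio was −0.52 for senescent over young whole cells, 0.51 for mitoplast over whole cells in young cells, −0.87 for the same in senescent cells and −1.90 for senescent over young mitoplasts. Directions were thus those of the full set. The subunit mRNAs are short: the leading coding transcript had a median of 614 nt, with 26 of 35 under 1000 nt, compared with 1393 nt over 7483 coding genes. Coding genes under 1000 nt had a median of −0.38 in senescent over young whole cells, and those of 1000 nt or more −0.13, beside −0.51 for the subunits. In senescent over young mitoplasts the medians were −1.74 for the shorter genes and −2.12 for the longer ones, beside −2.94 for the subunits, and in mitoplast over whole cells of young cells they were −0.52 for both, beside 0.51.

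Coding transcripts held 61.4% of the Ensembl FPKM of the 40 genes in senescent against 64.0% in young whole cells, and 58.3% in senescent against 65.8% in young mitoplasts. Over all coding genes the share was 40.9% in senescent mitoplasts and 64.0% to 65.7% in the other libraries. In senescent mitoplasts the coding share of the subunits was thus above that of all coding genes. Processed transcripts without a reading frame held most of the rest, at 33.5% in senescent against 29.8% in young whole cells, and 30.6% in senescent against 25.8% in young mitoplasts. Retained-intron transcripts held 8.85% in senescent against 3.77% in young mitoplasts, and 1.40% in senescent against 1.37% in young whole cells. Annotated pseudogene copies of the subunit genes numbered 170 and held FPKM equal to 2.77% of the Ensembl sum of the genes in senescent against 1.65% in young whole cells, and at most 0.254% in mitoplasts.

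**Figure D4:**
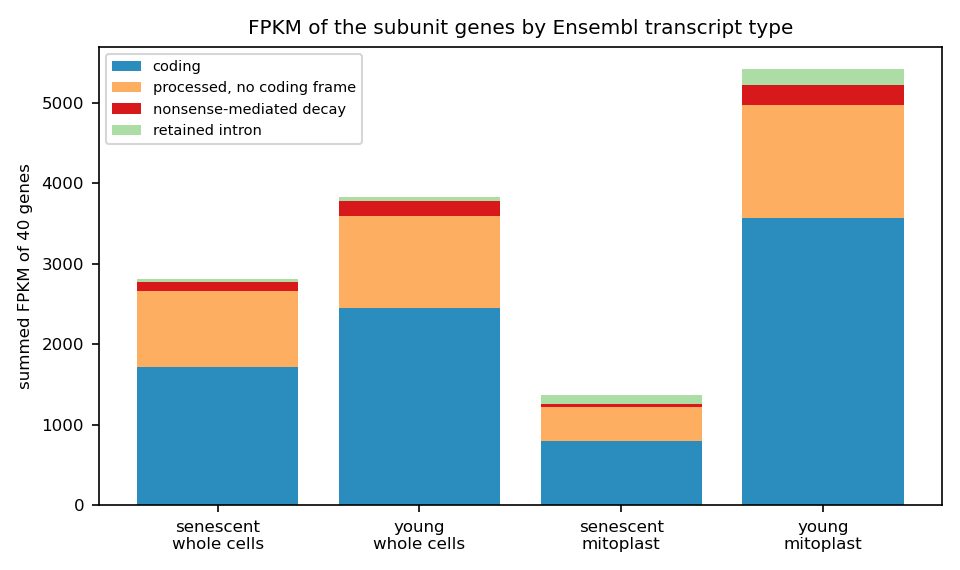
Summed FPKM of the 40 subunit genes in each library, 1 bar per library, split by Ensembl transcript type. Coding transcripts make up 58.3% to 65.8% of each bar, and the senescent bar is lower than the young one in whole cells and in mitoplasts.

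Genes that assemble or control these complexes were described beside the subunits. Of 44 assembly factors, 16 reached 5 FPKM in a whole-cell library, with a median ratio of senescent over young of −0.76, 6 lower and 1 higher by 1 or more, against 23.4 percent lower and 14.8 percent higher of all coding genes. Over all Ensembl transcripts, 23 factors were compared and their median was −0.26, beside −0.27 for all coding genes. The lowest were COA5, at 1.57 FPKM in senescent against 6.24 FPKM in young whole cells, and COA3, at 6.89 FPKM in senescent against 19.0 FPKM in young whole cells, both of which act in building complex IV. The highest were CMC2, with 6.15 FPKM in senescent whole cells and none listed in young ones, and HIGD1A, at 21.8 FPKM in senescent against 11.0 FPKM in young whole cells. LYRM7, the chaperone of UQCRFS1, was at 16.8 FPKM in senescent against 43.8 FPKM in young whole cells, with 53.7 FPKM in senescent against 23.4 FPKM in young mitoplasts. Of the regulators of nuclear respiratory genes, NRF1 was at 34.9 FPKM in senescent against 29.6 FPKM in young whole cells, and ESRRA at 8.98 FPKM in senescent against 29.6 FPKM in young whole cells, and both were listed at 0 in both mitoplast libraries.

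Tissue isoforms and further subunits were read beside the 40 genes. COX7A1, the heart and muscle isoform of subunit VIIa, was at 4.92 FPKM in senescent against 2.48 FPKM in young whole cells, with 7.01 FPKM in senescent against 49.6 FPKM in young mitoplasts. Its level in young mitoplasts was below that of COX7A2. The heart isoform COX6A2 and the alternative isoform COX4I2 were under 1 FPKM in every library. ATP5IF1, the inhibitor of ATP hydrolysis by complex V, was at 208 FPKM in senescent against 190.4 FPKM in young whole cells, with 95.5 FPKM in senescent against 292 FPKM in young mitoplasts. Of the mitochondrially encoded partners, MT-CYB, the cytochrome b of complex III, was at 14663 FPKM in senescent against 4257 FPKM in young whole cells, with 29903 FPKM in senescent against 16952 FPKM in young mitoplasts. MT-CO1, MT-CO2, MT-CO3, MT-ATP6 and MT-ATP8 were listed at 0 in both senescent libraries, which leaves their ratio to the nuclear subunits without a value there.

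Nuclear respiratory genes are known for binding sites of NRF1 and of the ETS-family factor GABP in their promoters, so the 250 bases before the start of each gene were searched in both directions for the NRF1 consensus, a self-complementary run with a CATG core, and the ETS motif CCGGAAGT. Of the 40 genes, 31 matched a promoter in RefSeq (assembly GRCh38.p14, which is not the build of the deposited values). The ETS motif was present in 7 of the 31 (22.6%), compared with 5.25% of 14901 coding genes and 3.42% of all 35116 promoters. The NRF1 motif was present in 2 of the 31 (6.45%), compared with 1.50% of coding genes and 1.03% of all promoters. The ETS matches were in SDHD, UQCRH, UQCRQ, UQCR11, COX5B, COX8A and ATP5PD, and the NRF1 matches in SDHD and ATP5F1C. In whole cells, 5 of 6 measured genes with the ETS motif were lower in the senescent library, with a median log2 ratio of −0.74, and 15 of 22 without it, with a median of −0.32. A match describes letters and is not a site shown to be bound.

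The promoters of UQCRH and COX8A are shown as examples with the ETS motif, from genes that were lower in senescent whole cells. That of ATP5F1C is shown for its NRF1 motif. That of ATP5MG, a gene with neither motif that was higher in senescent whole cells, is shown for comparison. These examples were picked partly by direction, and a link between motif and direction was not tested. In the full set, 5 of 6 genes with the ETS motif and 15 of 22 without it were lower. UQCR11, which holds the ETS motif, had the highest log2 ratio, 5.15, with 0 listed for young whole cells. Capitals mark the motif, which in UQCRH and COX8A reads ACTTCCGG on the strand of the gene. Its first base is 47 bases before the start in UQCRH (chr1:46303448-46303697, plus strand), 19 in COX8A (chr11:63974370-63974619, plus strand) and 22 in ATP5F1C (chr10:7787927-7788176, plus strand); the window of ATP5MG is chr11:118401356-118401605, plus strand.
UQCRH: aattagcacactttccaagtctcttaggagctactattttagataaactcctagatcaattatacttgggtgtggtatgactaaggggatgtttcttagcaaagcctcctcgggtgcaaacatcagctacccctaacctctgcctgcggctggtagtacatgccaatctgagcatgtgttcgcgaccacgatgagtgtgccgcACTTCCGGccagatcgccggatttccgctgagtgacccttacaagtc
COX8A: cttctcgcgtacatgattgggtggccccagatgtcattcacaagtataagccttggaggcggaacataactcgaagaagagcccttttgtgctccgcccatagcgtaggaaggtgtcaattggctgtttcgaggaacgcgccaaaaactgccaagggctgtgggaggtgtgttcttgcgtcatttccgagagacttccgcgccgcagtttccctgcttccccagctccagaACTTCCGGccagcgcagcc
ATP5F1C: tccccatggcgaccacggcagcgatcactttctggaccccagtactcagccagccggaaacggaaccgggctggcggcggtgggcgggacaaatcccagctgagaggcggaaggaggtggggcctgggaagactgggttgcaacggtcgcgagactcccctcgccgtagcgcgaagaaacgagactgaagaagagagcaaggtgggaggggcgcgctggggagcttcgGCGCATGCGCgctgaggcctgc
ATP5MG: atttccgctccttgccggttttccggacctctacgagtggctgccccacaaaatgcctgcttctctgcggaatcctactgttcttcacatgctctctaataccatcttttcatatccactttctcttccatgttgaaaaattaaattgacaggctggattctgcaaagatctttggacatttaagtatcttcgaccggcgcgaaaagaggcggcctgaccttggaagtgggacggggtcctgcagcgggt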

How the data were processed

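RNA-seq FPKM per transcript were made and deposited by the authors in 4 tables, 1 per library, with 393483 transcripts each, per the file headers. Per the submitters' processing notes, Cufflinks 2.2.1, Cuffdiff, TopHat2 2.0.14 and the build hg19 were involved, with no role or order stated. The annotation release and the strand setting were not given in the sources used here, so reads of overlapping genes cannot be told apart. The files hold no counts, so depth is unknown and no counting error is given.

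Here, transcripts were joined over libraries with Python 3.11.15 and pandas 2.3.3. Ensembl identifiers (185591 transcripts, 93.0% matched) were given names, types and lengths from GENCODE release 29, whose build differs from the files. Ratios are log2 of (FPKM + 1), which understates changes of low genes, over genes at 5 FPKM or more in either library. No test was made, since each group had 1 library. "Higher" and "lower" by 1 mean a log2 ratio of at least 1 either way. An exact 0 can be a failed estimate and is called listed at 0. The genes named are, per complex, the highest gene in young whole cells and the 2 highest and 2 lowest ratios of each comparison, with all 40 accounted for. The members, gene lists and alternatives were chosen with earlier results of these data known.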

Additional observations from a re-analysis of the deposited data

Results flagged for a closer look

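In some subunit genes the mitoplast to whole-cell log2 ratio was above 0 in young cells and below 0 in senescent cells by at least 1 each, or the reverse, and the difference, senescent minus young, was not tested because each ratio rests on 1 library a side. It was −2.41 for UQCR10, −4.97 for CYCS, −5.56 for COX7B, −2.54 for ATP5MG and 2.74 for ATP5F1B. It was −11.35 for UQCR11 and −7.03 for COX7C, which rest on libraries listed at 0. For these 2 genes, and for COX7B and CYCS, which were under 1 FPKM in senescent mitoplasts, the value depends on the 1 FPKM added and is no measure of size. The leading transcript of ATP5F1B differed between the libraries, as described above. Those of UQCR10, COX7B, COX7C and CYCS were not the same in every library with a value either. The part of the transcripts in these differences was not tested.

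In transcripts that carry an Ensembl identifier without a match in the annotation used, and so belong to no gene value, ENST00000544611 in the locus of ATP5MF was at 648.9 FPKM in young mitoplasts and at 0 in the other 3 libraries, and ENST00000513700 in the locus of SDHC was at 53.8 FPKM in senescent against 0 in young whole cells, with 15.5 FPKM in senescent against 45.7 FPKM in young mitoplasts.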

How the results depend on the processing

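The alternatives were a pseudocount of 0.1 FPKM, a filter of 1 FPKM or none, genes above 0 in both libraries, all Ensembl transcripts, these with the assembled transcripts of the locus, coding transcripts of at least 400 nt, equal coding sums and median-of-ratios scaling. No paired analysis was possible because each group has 1 library, which also leaves no replicate to leave out. What limits these results is that 1 library stands for each group, that depth is unknown, that many values in senescent mitoplasts are exact zeros, and that the transcript carrying the FPKM of a gene differed between libraries.

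Counts of subunit genes are given with the share of all coding genes under the same setting. In senescent over young whole cells, the count of higher genes was 0 with genes above 0 in both (11.8%), with all Ensembl transcripts (13.8%) and with assembled ones added (11.7%), and the count of lower genes was 1 with equal sums (16.9%) and by median of ratios (18.9%). In senescent over young mitoplasts, the median was −2.34 with no filter, −1.96 above 0 in both, −1.33 with equal sums and −1.75 by median of ratios. There the count of lower genes was 20 above 0 in both (52.5%) and 19 with equal sums (38.2%). The count of higher genes was 3 with all Ensembl transcripts (23.7%), 2 with assembled ones added (20.6%), 0 at 400 nt or more (16.7%), 3 with equal sums (37.6%) and 2 by median of ratios (31.6%). In young mitoplast over whole cells, the count of lower genes was 1 at 400 nt or more (38.9%), and that of higher genes was 15 with equal sums (21.8%) and by median of ratios (24.4%). In senescent mitoplast over whole cells, the median was −0.997 above 0 in both, −2.27 at 400 nt or more, 0.0554 with equal sums, which turned its direction, and −0.16 by median of ratios. There the count of lower genes was 12 above 0 in both (61.0%), 13 with equal sums (43.5%) and 13 by median of ratios (45.3%), and that of higher genes was 0 at 400 nt or more (12.6%), 8 with equal sums (31.6%) and 4 by median of ratios (29.1%). The median difference, senescent minus young, was −1.86 with no filter, −1.56 above 0 in both, −1.17 with equal sums and −1.5 by median of ratios. The causes were not tested.

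Of single genes, SDHA in senescent over young mitoplasts turned to 3.17 with all Ensembl transcripts and 2.97 with assembled ones added. At 400 nt or more, SDHC in young mitoplast over whole cells turned to 3.62, and ATP5F1B turned to −5.31 in senescent over young mitoplasts and −5.65 in senescent mitoplast over whole cells, since their shortest coding transcript was left out.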
